A study of Mus musculus with 12 samples.

Results

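The comparison described here is between OTII CD4+ T cells primed in WT recipients and sorted on Day 3 (3 libraries) and on Day 5 (3 libraries). These 6 libraries, whose groups come from their labels, belong to a series of 12, and the other 6 came from Il6-/- recipients at the same days. OTII cells carry a transgenic T cell receptor that recognises an ovalbumin peptide on MHC class II. Donor OTII cells, WT for Il6 in every group, were transferred into WT or Il6-/- hosts, so that genotype here is that of the host. All recipients were sensitized through the nose with house dust mite extract (HDM) of high endotoxin content together with LPS-free ovalbumin. OTII cells were sorted from the mediastinal lymph nodes on Day 3 or Day 5, whereas the labels give the tissue as blood. The labels count days from 1 and the study counts from 0, and no age is given. Nothing in the labels ties a replicate to a separate animal, so that p-values measure the spread between these libraries, which may be technical.

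A naive CD4+ T cell that meets its antigen leaves quiescence, grows, and divides several times before it differentiates. Growth is carried by Myc, by ribosome synthesis and by glycolysis, and the divisions by the E2F-driven genes of DNA replication followed by the genes of mitosis. IL-2 received through its high-affinity receptor favours effector cells, while IL-6, which signals through gp130 and STAT3 and induces SOCS3, is present in these WT hosts. Proliferation then slows, and some cells return to a resting state that depends on IL-7.

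Genes of cell division fell nearly throughout between Day 3 and Day 5 in WT recipients, and no member of either cell cycle list rose. Genes of cholesterol synthesis, of serine and folate metabolism and part of glycolysis fell with them, together with the IL-2 receptor alpha chain and part of the Th17 genes. Genes that rose included the pro-apoptotic factor Bcl2l11, early response genes of T cell receptor signalling, ligands of the TNF family, MHC class I genes, Il7r and other genes of resting cells. Over all 13570 genes tested, 2996 (22.1%) passed a false discovery rate (FDR) under 0.05 with a change of at least 2-fold, and these are written as called below. Of them, 1722 (12.7%) were higher and 1274 (9.39%) lower on Day 5, which are the shares to set beside each list count below, and 57.5% of the calls were increases. The libraries of both days did not overlap in 8593 genes (63.3%), 33.4% with Day 5 higher and 29.9% with Day 5 lower, among them 2892 of the called genes. By FDR alone 7688 genes (56.7%) passed, of which 4004 (29.5%) were higher and 3684 (27.1%) lower. Changes of at least 5-fold were called in 347 genes that rose and 327 that fell, and of at least 10-fold in 107 and 60. The median log2 fold change of all tested genes was 0.09, which became 0.29 with upper-quartile scaling, and the share of calls that were increases then became 71.3%. Tested against a 2-fold change instead of against no change, 504 genes were higher and 676 lower.

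All values are CPM, read counts scaled to a common library total with edgeR's TMM factors, and each change is a log2 fold change (Day 5 minus Day 3) with its standard error and the FDR of edgeR's quasi-likelihood test, Benjamini-Hochberg adjusted over all tested genes. CPM measures a share of the library, so that fewer cells of a type and less RNA per cell cannot be told apart. Day 3 replicate 1 held 26111657 reads counted on genes and the other 5 WT libraries between 18848994 and 20571565, and without it 1538 genes were higher and 1178 lower. Read composition moved with day. Reads counted on genes made up 60.2% to 61.2% of each Day 3 library and 52.5% to 55.8% of each Day 5 library, reads outside genes 12.2% to 12.9% and 15.2% to 17.3%, and the 10 most abundant genes 7.35% to 7.67% and 10.6% to 11.8% of the counts. Malat1, an RNA held in the nucleus, went from 489, 444 and 377 CPM on Day 3 to 3125, 2572 and 2559.7 CPM on Day 5. The part of read composition in the changes below was not tested.

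Markers of the label were present in each WT library. Cd4 was at 873, 961 and 899.6 CPM on Day 3 and 1198, 1220.2 and 1148 CPM on Day 5, and Cd3e, a signalling chain of the T cell receptor complex, at 592, 751 and 705 and 895, 892 and 1161 CPM. Trbv12-2, which belongs to the Vβ5 family used by the OTII receptor, took 39.3% to 40.3% of the reads on 35 Trbv segments in the Day 3 libraries and 50.3% to 51.8% in the Day 5 libraries, more than any other segment in each (exact 95% binomial intervals within 38.1% to 41.4% and 49.4% to 52.7%, counting error only). In the Day 3 libraries most Trbv reads thus lay on other segments, and their source was not tested. Of 18 T cell identity genes 16 passed the FDR upward and 3 were called, Cd3g, Cd3d and Cd2. Trbc1 of this list spread widely within each day, at 290, 239 and 87.5 CPM on Day 3 and 106, 5.56 and 543 CPM on Day 5 (FDR 0.953). Cd44, which marks antigen-experienced cells, was at 115, 124 and 120.3 and 215, 222 and 245 CPM, 0.92 ± 0.07 higher (SE, FDR 1.02e-07). Of 16 B cell markers 8 could be tested, their sum was 593 to 681 CPM on Day 3 and 441 to 489 CPM on Day 5 (nearly all of it Ighm, at 596, 676 and 663 and 426, 436 and 458 CPM), and the defining marker Ms4a1 did not pass the filter on low counts. Cd79a rose from 0.546, 0.939 and 0.651 to 2.65, 2.86 and 2.54 CPM and Cd79b was at 3.55, 5.29 and 6.73 and 2.75, 2.81 and 4.61 CPM. Of 18 myeloid and dendritic cell markers 13 were tested and 3 were called higher (Zbtb46, Csf1r and Siglech), with a sum of 106 to 112 and 130 to 189 CPM. Most of this sum was Cst3, not called, at 84.6, 86.4 and 89.1 and 100.1, 99 and 112 CPM. Lyz2 was at 13.9, 11.5 and 2.93 and 16.5, 10.1 and 28.3 CPM, while Itgax was too low to test. Csf1r missed the FDR without any 1 of 4 WT libraries and Siglech without any 1 of 3, and without Day 5 replicate 3 they were at 0.51 (FDR 0.324) and 0.83 (FDR 0.235). The part of these cells in the changes below was not tested. In the NK and CD8 T cell list 6 of 11 markers were tested, 2 rose (Klrb1c and Eomes) and 2 fell (Klrc1 and Cd8a, the latter from 0.234, 1.19 and 1.09 to 0.102, 0 and 0.094 CPM), where Klrc1 missed the FDR without any 1 of 5 WT libraries, with sums of 63.3 to 74.8 and 92.4 to 115 CPM. Cd8b1 was at 56.3, 67.7 and 64.1 and 56.5, 65.3 and 71.8 CPM, and Ncr1 was too low to test. None of 5 sex-linked genes was called, but 3 passed the FDR upward. Xist was at 1.13, 0.297 and 0.109 and 0.713, 0.208 and 0.611 CPM. Ddx3y was at 65.5, 68.7 and 64.6 and 72.7, 94.4 and 88.9 CPM (0.37, FDR 0.00564). Surfactant genes of lung epithelium appeared on Day 5, with Sftpc at 14.1, 0.675 and 5.78 CPM after 0.156, 0 and 0 CPM, highest in the Day 5 library of replicate 1. Without that library 1509 genes were higher and 1208 lower. The lung list (7 of 11 tested, with Sftpb, Sftpc and Krt8 called higher) summed to 115 to 118 CPM on Day 3 and 142 to 173 CPM on Day 5, mostly Pecam1, and Epcam was at 0.819, 0.494 and 0.814 and 0.764, 1.71 and 0.47 CPM. None of 8 red cell and platelet markers (Hba-a1 and Hbb-bs among them) could be tested, at 0.460 to 0.784 and 0.307 to 1.27 CPM in all. Hspa1b, which heat and handling induce, was at 121, 9.3 and 5.92 and 94, 18.6 and 59.5 CPM and Hspa1a at 41.5, 1.48 and 2.17 and 21.6, 3.84 and 15.3 CPM, high in replicate 1 of both days and in Day 5 replicate 3. Neither passed (FDR 0.774 and 0.87), but without Day 3 replicate 1 they were called higher, Hspa1b by 2.90 (FDR 0.00597) and Hspa1a by 2.90 (FDR 0.0153). Of 11 tested genes of that list, Fos and Fosb rose and Hsph1 and Hsp90aa1 fell. Krt8 missed the FDR without any 1 of 4 WT libraries, Day 3 replicate 2 or 3 or Day 5 replicate 1 or 3, with FDR 0.0693 to 0.0925. Fosb missed it without any 1 of 3, Day 3 replicate 1 or 3 or Day 5 replicate 3, with FDR 0.0718 to 0.106.

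**Figure D1:**
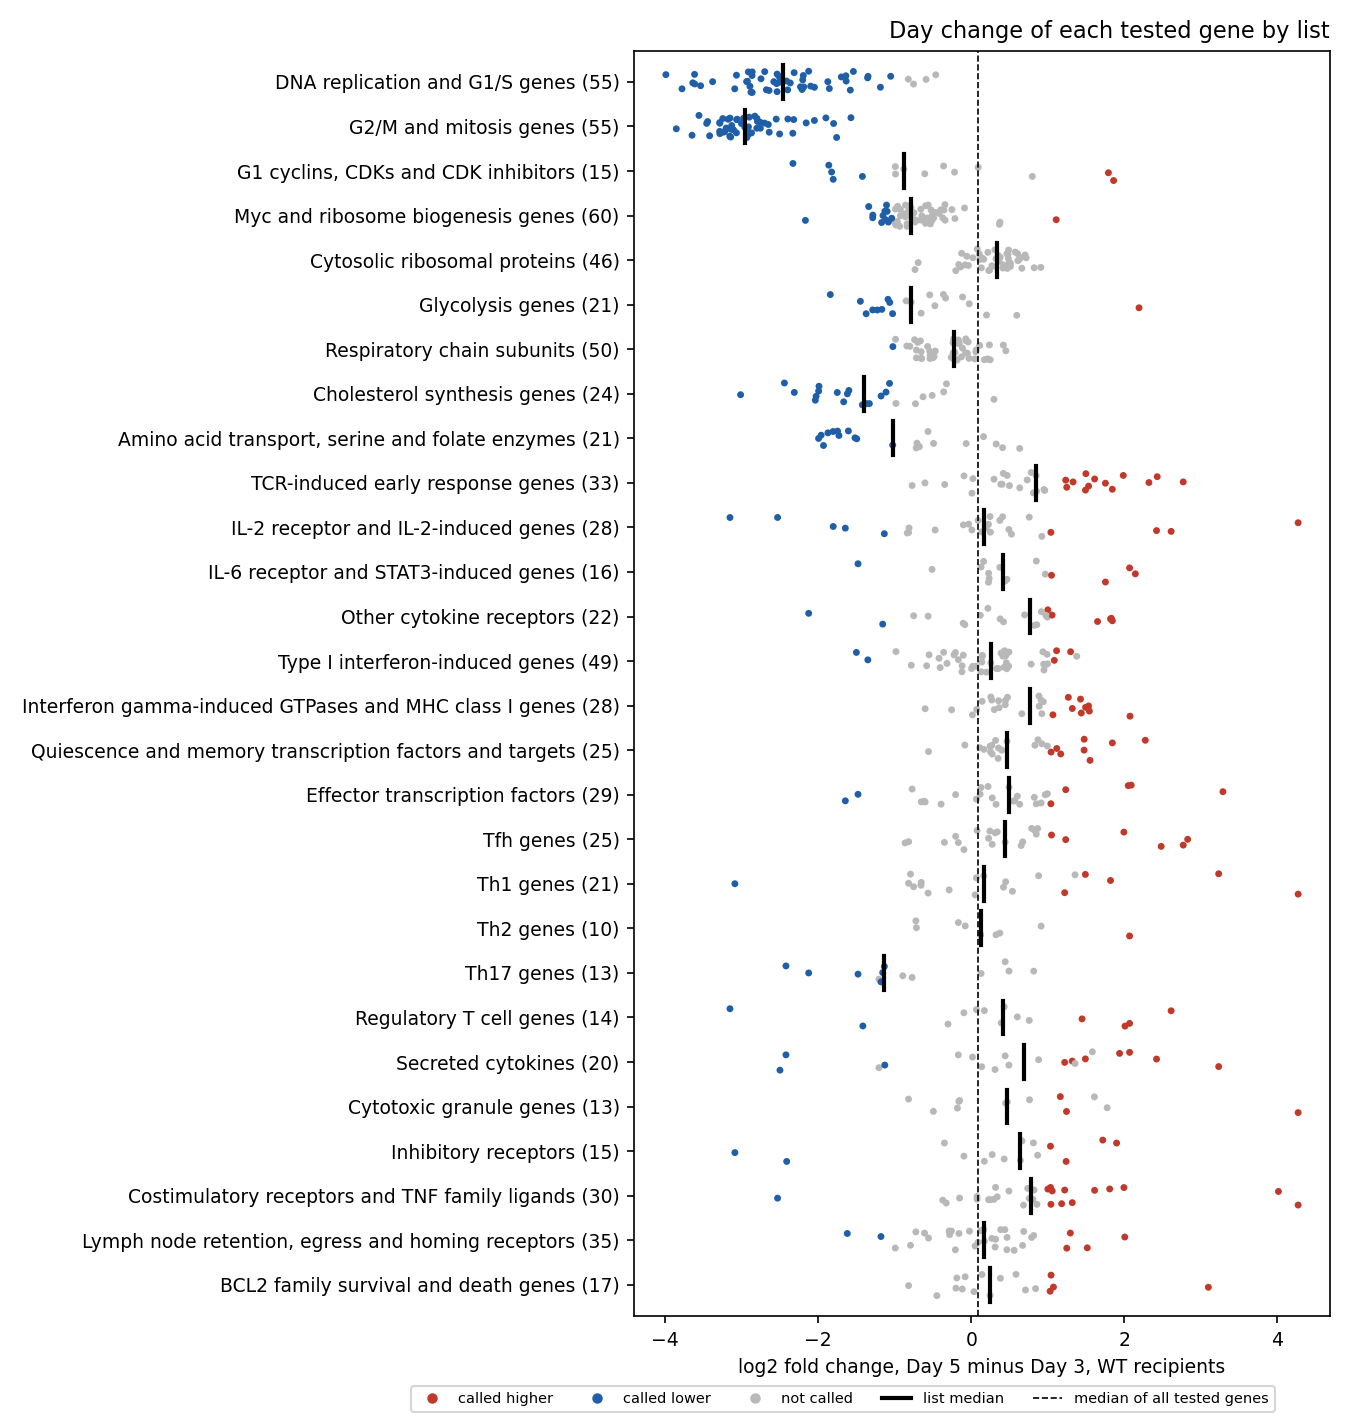
Log2 fold change from Day 3 to Day 5 in WT recipients (x axis) of each tested member of 28 gene lists, 1 point per gene (number of tested members in brackets), coloured by the call, with a bar at the list median and a dashed line at the median of all 13570 genes, 0.09. Both cell cycle lists lie wholly to the left, with medians of -2.46 and -2.96, while the TCR-induced early genes and the list of costimulatory receptors and TNF family ligands lie mostly to the right, with medians of 0.85 and 0.78.

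DNA replication genes fell throughout. Of 55 members 51 were called lower and none higher, against 9.39% of all tested genes called lower, and the libraries of both days did not overlap in any of the 55. The list median was -2.46, and the sum of its members went from between 12760 and 13832 CPM on Day 3 to between 2308 and 3066 CPM on Day 5. Cdt1, which licenses replication origins, had the smallest p of all genes that fell. It went from 97.4, 91 and 91.3 CPM in the Day 3 libraries to 17.5, 19.3 and 14.2 CPM in the Day 5 libraries, a change of -2.46 ± 0.11 (SE, FDR 9.37e-09). Its partner Cdc6 dropped further, from 137, 122 and 124 to 5.85, 13.7 and 11.8 CPM (-3.61 ± 0.25, FDR 4.08e-08). The Day 3 values of both genes lay close together, and Cdc6 was lowest in replicate 1 on Day 5. Mcm2, Mcm5 and Mcm6, subunits of the replicative helicase, went from 545, 482 and 479 to 68.5, 100 and 83.5 CPM, from 896, 814 and 807 to 87.3, 131 and 127 CPM and from 964, 888 and 881 to 171, 244 and 223 CPM. Mcm10, which acts in the start of DNA replication, was among the largest decreases in the data. It had 100.2, 80.9 and 84.6 CPM on Day 3 and 2.55, 8.99 and 5.22 CPM on Day 5 (-3.99). Pcna, the sliding clamp of the polymerases, had 506, 502 and 531 and 128, 147 and 150 CPM, a change of -1.85 ± 0.10 (FDR 1.36e-08). Rrm2, the regulated subunit of ribonucleotide reductase, fell from 1109.8, 1033 and 1111 to 54.5, 102 and 104 CPM. Dut, which keeps uracil out of DNA, fell by 2.20, Rfc5, a clamp loader subunit, by 2.12, and the exonuclease Exo1, outside the list, by 4.14. Ccne1, the cyclin that drives entry into S phase, fell from 136, 99.6 and 103 to 15.2, 28.6 and 15.8 CPM. The 4 members not called were E2f1, Gins4, Rpa1 and Rpa3, each lower with an FDR under 0.05. E2f1, the transcription factor that activates many genes of this list, was at 17.4, 16.9 and 15.5 CPM on Day 3 and 12.1, 14.7 and 9.4 CPM on Day 5 (-0.46 ± 0.17, FDR 0.0338), while E2f2 fell by 1.35. Ticrr, Chtf18, Rnaseh2b, Cbx5 and Suv39h1, which act in replication or in heterochromatin, were also among the 10 smallest p-values of genes that fell, at -3.27, -3.09, -1.68, -2.27 and -2.13.

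Mitosis genes fell further still. All 55 members of the G2/M list were called lower, with changes between -1.57 and -3.85 and a median of -2.96, and their sum went from between 10884 and 11875 CPM to between 1134 and 2028 CPM. Top2a, which untangles sister chromatids, went from 889.8, 804 and 859.7 CPM on Day 3 to 90, 137 and 112 CPM on Day 5 (-2.91 ± 0.20, FDR 2.98e-08). Mki67, the usual marker of cycling cells, had 508, 470.4 and 489 and 42.8, 84.4 and 67.9 CPM. Replicate 1, which also held the most lung marker reads, was the lowest Day 5 library in all 55 members, and without it all 55 were still called lower with a median of -2.70. Ccnb1 and Ccna2, the cyclins of mitosis and of S and G2 phase, fell from 478, 419 and 512 to 28, 61.5 and 58.8 CPM and from 561, 524 and 563 to 24.1, 67.4 and 62.5 CPM. Their kinase Cdk1 had 293, 267 and 296 and 21.6, 45.9 and 42.6 CPM. Cdc20, the activator that lets cells leave metaphase, had 445, 394 and 429.9 and 30.3, 68.6 and 68.8 CPM (-2.92 ± 0.28, FDR 5.96e-07). The mitotic kinases Plk1 and Aurkb fell by 3.44 and 3.07, the checkpoint kinase Bub1 by 3.46, Melk by 3.10, and the motor proteins Kif14 and Kif11 by 3.06 and 2.90. Foxm1 and Mybl2, transcription factors that activate mitotic genes, fell from 97.4, 70.3 and 73.3 to 4.63, 9.61 and 10.4 CPM and from 132, 122 and 136 to 4.94, 9.82 and 12.1 CPM. Prc1, which bundles the central spindle, fell by 2.76, and the kinetochore protein Zwilch by 3.19. Ptma, an abundant chromatin protein of growing cells, had 1662, 1605 and 1689 CPM on Day 3 and 684, 676 and 695 CPM on Day 5.

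**Figure D2:**
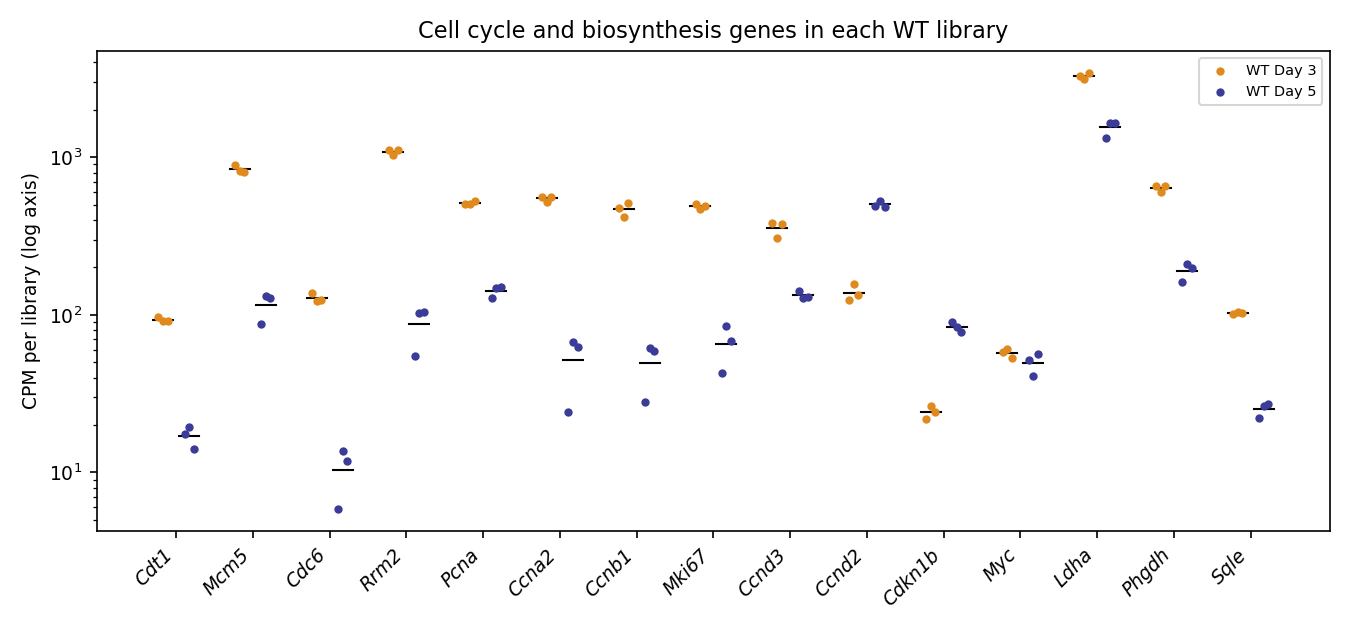
CPM (log axis) of 15 genes of the cell cycle and of biosynthesis in each of the 3 WT Day 3 libraries (orange) and 3 WT Day 5 libraries (blue), 1 point per library with a bar at the group mean. Points of both days separate for 14 of the genes and overlap for Myc, and Ccnd2 and Cdkn1b are the 2 genes shown that are higher on Day 5.

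The promoters of the genes that fell are shown because both lists are known to be controlled through short sequence elements, CCAAT boxes and CHR elements (TTTGAA) in mitotic genes and E2F sites in replication genes. Sequences are from RefSeq (GRCm38.p6, 250 bases before to 50 after each start), written 5′ to 3′ as transcribed, with the motif or its reverse complement in capitals, and each printed stretch ends before the start site. Of 55 G2/M members 47 matched the promoter table, and 26 of these (55.3%) held both CCAAT and TTTGAA on either strand, against 7.97% of 27025 genes. Singly, CCAAT was in 72.3% against 41.1% and TTTGAA in 66% against 20.2%. Of 55 replication members 45 matched, and 14 (31.1%) held TTTGGCGC or TTTCCCGC, against 1.8% of the same 27025 genes. Those 27025 genes were not limited to the genes tested here, so that list membership and expression were not separated. A match describes these letters only and is no evidence of binding.
Cdc20, chr4:118437344-118437400 (minus strand): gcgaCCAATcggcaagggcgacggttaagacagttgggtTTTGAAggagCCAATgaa
Mki67, chr7:135716468-135716571 (minus strand): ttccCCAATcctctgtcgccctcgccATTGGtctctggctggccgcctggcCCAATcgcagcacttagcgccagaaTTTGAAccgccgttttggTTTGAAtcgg
Kif11, chr19:37376333-37376372 (plus strand): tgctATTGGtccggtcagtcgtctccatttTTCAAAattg
Mcm5, chr8:75109354-75109373 (plus strand): actttcGCGCCAAAacgtcc
Mcm6, chr1:128359739-128359821 (minus strand): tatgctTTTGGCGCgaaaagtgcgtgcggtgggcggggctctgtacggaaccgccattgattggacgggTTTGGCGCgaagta
Cdc6, chr11:98908007-98908026 (plus strand): tggagaGCGGGAAAtcgcct

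Of 15 tested regulators of the G1 phase of 17, 2 rose (Ccnd2 and Cdkn1b) and 5 fell, against 12.7% and 9.39% of all genes (Ccnd3, Cdk2, Cdk6, Cdkn2c and Cdkn3), and the list median was -0.88. Ccnd2 and Ccnd3 encode D-type cyclins that switch on CDK4 and CDK6, and they moved in opposite directions. Ccnd2 rose from 123, 157 and 134 CPM on Day 3 to 491, 531 and 485 CPM on Day 5 (1.86 ± 0.12, FDR 2.54e-08), and Ccnd3 fell from 382, 309 and 379 to 141, 129 and 129 CPM (-1.42 ± 0.10, FDR 3.35e-08). Neither gene's libraries overlapped between days. Exons of Ccnd3 overlap those of Bysl, which is described below, so that reads there can be left out as ambiguous or taken for the other gene. Cdkn1b, which encodes the CDK inhibitor p27 of resting lymphocytes, rose from 22, 26.5 and 24.2 to 89.6, 83.7 and 78.2 CPM (1.79 ± 0.17, FDR 4.56e-07). Cdkn2c, the inhibitor p18, fell from 91.4, 75.3 and 80.5 to 17, 31.2 and 21.6 CPM. Cdk6 fell by 1.80 and Cdk2 by 1.86, and Cdk4 was lower by 0.99, just under the 2-fold limit (FDR 1.73e-07). Cdkn1a, the inhibitor p21, was low in all 6 libraries, at 1.87, 1.38 and 2.12 and 1.68, 0.468 and 1.36 CPM, and did not pass (FDR 0.228).

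Genes of ribosome synthesis were lower on Day 5 by less than those of the cell cycle, and Myc itself did not pass the test. Myc was at 58.4, 60.8 and 53.5 CPM on Day 3 and 51.8, 40.6 and 56.6 CPM on Day 5 (-0.21 ± 0.13, FDR 0.189), and the days overlapped. Of 60 tested members of the list of 61, 12 were called lower and 1 higher, but 55 passed the FDR downward against 27.1% of all genes, and the median was -0.78. The nucleolar proteins Ncl and Npm1 had 904, 787 and 847 and 376, 414 and 379 CPM (-1.12 ± 0.10, FDR 4.03e-07, called) and 1183, 1089.6 and 1181 and 646, 642 and 599 CPM (-0.87 ± 0.07, FDR 1.04e-07, under 2-fold). Fbl and Nop56, core proteins of the snoRNPs that modify rRNA, were lower by 0.93 and 0.96, and Nop58 and Gar1 fell by 1.10 and 1.29. Bysl, needed for the small subunit, fell by 1.34. The member that rose was Mxd4, a MAX partner that opposes MYC at its targets (1.11 ± 0.33, FDR 0.00916). CACGTG, the E-box bound by MYC, was in the promoters of 12 of 53 matched members (22.6%). Its share was 8.09% of the 27025 genes with a promoter sequence, which were not limited to the genes tested here.

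The ribosomal proteins themselves moved the other way by a small amount. Of 46 cytosolic ribosomal protein genes none was called, 30 passed the FDR upward and 3 downward (Rps2, Rpl14 and Rpl3), and the median was 0.34 against 0.09 for all genes. Rps14 was at 1088, 1194 and 1218 CPM on Day 3 and 2398, 2001 and 1794 CPM on Day 5 (0.82 ± 0.11, FDR 1.88e-05), and Rps28 at 632, 714 and 731 and 1601, 1358 and 944 CPM, with Day 5 replicate 3 lowest of its group in both. Rplp0 was at 2498, 2528 and 2592 and 2424, 2339 and 2457 CPM, a difference of -0.08 that turned to 0.12 with upper-quartile scaling. These genes have many processed pseudogenes that share their sequence, so that their counts are uncertain.

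Part of the glycolysis genes fell. In the glycolysis list of 21 genes 9 fell and 1 rose, with a median of -0.79. Eno1, which makes phosphoenolpyruvate, fell from 1682, 1581 and 1748 CPM on Day 3 to 697, 748 and 786 CPM on Day 5 (-1.17 ± 0.09, FDR 6e-08), and Ldha, which reduces pyruvate to lactate, from 3259, 3151 and 3448 to 1327, 1657 and 1656 CPM (-1.09 ± 0.11, FDR 1.11e-06). Hk2, the inducible hexokinase, fell from 17.5, 11.1 and 13.8 to 3.11, 4.16 and 4.56 CPM, and the lactate transporter Slc16a1, Pkm, Pgam1 and Gapdh fell by between 1.03 and 1.45. Under upper-quartile scaling Eno1, Ldha and Gapdh were under the 2-fold limit at -0.97, -0.89 and -0.87, and without Day 5 replicate 1 Ldha and Gapdh were too, at -0.99 and -0.97. Aldoa was lower by 0.65 and its brain-type paralog Aldoc was the member that rose, by 2.19. The glucose transporter Slc2a1 did not follow, at 34.9, 38 and 39.1 and 36, 36.3 and 37.7 CPM (-0.03, FDR 0.828, overlapping between days). Slc2a3 was lower by less than 2-fold, at 29.5, 23.3 and 20.1 and 18, 16.4 and 18.1 CPM (-0.47, FDR 0.0161). Of 50 respiratory chain subunits 1 was called lower and none higher, 28 passed the FDR downward and 4 upward, and the median was -0.23. Cycs, the electron carrier cytochrome c, was the called member, at 251, 236 and 257 and 119, 146 and 100.1 CPM (-1.02), and without scaling or with upper-quartile scaling it was under 2-fold. Atp5f1a (counted as Atp5a1), Sdha, Ndufs1 and Uqcrc2, subunits of complexes V, II, I and III, were lower by 0.84, 0.66, 0.65 and 0.50, while Cox4i1 of complex IV was at 604, 655 and 673 and 773, 713 and 691 CPM (0.17, FDR 0.0522).

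Cholesterol synthesis fell as a block, in 17 of 24 tested members called lower and 23 passing the FDR downward, with a median of -1.40. Hmgcs1, which makes HMG-CoA, fell by 1.75, and Idi1 and Sqle, which act further down the pathway, fell from 42.2, 31.3 and 37.1 to 3, 6.08 and 4.61 CPM and from 102, 104 and 102 to 22.1, 26.3 and 27 CPM. Fdps, an isoprenoid synthase, fell by 1.99, Fdft1, which makes squalene, by 1.37, and Acat2 by 1.67. Fads2, a fatty acid desaturase outside this list, had the largest decrease of all called genes above 10 CPM, from 33.3, 22.2 and 22 to 1.02, 1.45 and 0.94 CPM (-4.50 ± 0.36, FDR 9.83e-08). In the opposite direction Abca1, which exports cholesterol, rose from 0.585, 0.939 and 0.651 to 27.4, 14.7 and 13.5 CPM (4.68 ± 0.42, FDR 3.08e-07).

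Serine and folate enzymes fell as well. Phgdh, which commits glucose carbon to serine, went from 656, 598 and 655 CPM on Day 3 to 160.5, 209 and 199 CPM on Day 5 (-1.75 ± 0.14, FDR 8.77e-08), and the next enzyme Psat1 from 315, 294 and 302 to 69.7, 88 and 91 CPM. Shmt1, Shmt2 and Mthfd2, which pass carbon from serine to folate, fell by 1.81, 1.61 and 1.03, and the asparagine synthetase Asns by 1.99 from 2.85, 3.07 and 4.13 CPM. In all 11 of 21 tested members of the list of 23 were called lower and none higher. Slc7a5 and Slc3a2 encode both chains of the large neutral amino acid transporter and went opposite ways. The transporting chain Slc7a5 fell from 78.4, 56.9 and 62.9 to 16.4, 21.4 and 13.2 CPM (-1.96 ± 0.17, FDR 2.42e-07), while its partner Slc3a2 was at 85.9, 90.8 and 93.6 and 143, 126 and 151 CPM (0.63 ± 0.10, FDR 5.33e-05, under 2-fold). The glutamine transporter Slc1a5 had 308, 307 and 293 and 359, 323 and 332 CPM and did not pass (FDR 0.0797).

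T cell receptor response genes were higher on Day 5. Of 33 tested members of 34, 13 rose and none fell against 12.7% and 9.39% of all genes, with a median of 0.85. Egr2 and Egr3, transcription factors induced by antigen, rose from 34.1, 45.2 and 41.7 CPM on Day 3 to 116, 124 and 101 CPM on Day 5 (1.5 ± 0.12, FDR 1.02e-07) and from 8.86, 11.6 and 12.2 to 51.4, 57.1 and 54.2 CPM (2.32 ± 0.14, FDR 1.6e-08). The orphan receptors Nr4a1 and Nr4a3 rose from 51.1, 65.8 and 59.1 to 128, 145 and 169 CPM and from 4.17, 5.09 and 3.53 to 18.9, 23.9 and 26.4 CPM. None of these 4 genes overlapped between days. Dusp6, a phosphatase that dampens ERK, rose by 1.99, the costimulatory receptor Tnfrsf9 by 1.61 and the retention receptor Cd69 from 78.3, 98.7 and 65.1 to 198, 151 and 227 CPM. Egr1 was higher by 0.63 (FDR 0.000305), and Irf4, whose level tracks receptor signal strength, was lower, at 122, 134 and 124 and 83.8, 72.5 and 66.4 CPM (-0.77 ± 0.12, FDR 4.97e-05). Fos of the handling list and Junb, outside it, also moved with day. Fos went from 35.5, 31 and 18.6 to 194, 109.8 and 169.7 CPM and Junb from 304, 342 and 246 to 1091, 673 and 1247 CPM, both lowest on Day 5 in replicate 2, and their part in the changes of this list was not tested. Lax1, Matk and Cyth3, outside this list, were among the smallest p-values of genes that rose. Lax1, a membrane adaptor that limits receptor signalling, rose from 109, 114 and 103 to 339.5, 336 and 333 CPM (1.63 ± 0.08, FDR 1.26e-08), and Matk, a kinase that inhibits Src family kinases, from 4.8, 6.03 and 4.72 to 47.6, 70 and 46 CPM. Cyth3, an exchange factor for ARF GTPases, rose by 2.34.

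In the IL-2 axis the alpha chain of the receptor fell and the cytokine rose. Il2ra, the alpha chain CD25 that gives the receptor its high affinity, fell from 24, 19.1 and 37.2 CPM on Day 3 to 3.66, 2.81 and 2.54 CPM on Day 5 (-3.15 ± 0.31, FDR 6.84e-07). Il2 itself rose from 0.624, 1.09 and 0.923 to 3.97, 5.97 and 4.14 CPM (2.42 ± 0.38, FDR 6.34e-05), at low levels in both groups. Il2rb, the beta chain shared with the IL-15 receptor, was at 558, 544 and 567 and 565, 564 and 649 CPM (0.09, FDR 0.296, with both days overlapping). Cish, a SOCS family gene induced by STAT5, was lower by 0.84 (FDR 0.00103, under 2-fold), at 14.9, 12.9 and 20.1 and 8.86, 10.3 and 7.66 CPM. Of 28 tested members of 30, 4 rose and 5 fell, against 12.7% and 9.39% of all genes, the latter being Il2ra, Tnfrsf8, Cdk6, Ahr and Prdm1. Tnfrsf8, the TNF receptor CD30, fell from 33.4, 24.8 and 27 to 2.19, 4.57 and 7.9 CPM. Fasl, the death ligand, rose from 0.936, 1.88 and 0.543 to 19.3, 26 and 20.1 CPM (4.27 ± 0.32, FDR 5.94e-08) and was among the 5 largest increases above 10 CPM, and Ikzf4 rose by 2.61.

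Receptors for IL-6 and for other cytokines rose more often than they fell. Il6st, which encodes gp130, rose from 178, 186 and 172 CPM on Day 3 to 418, 375 and 319 CPM on Day 5 (1.05 ± 0.12, FDR 3.38e-06), and Il6ra was at 87.7, 99.3 and 86.6 and 185, 182 and 168 CPM, higher by 0.97 (FDR 3.94e-07). Both lie at the 2-fold limit, and Il6st was under it at 0.98 without the low-count filter and at 0.95 without Day 5 replicate 1. Downstream, Stat3 was higher by 0.16 (FDR 0.0455) and Socs3, the feedback inhibitor that STAT3 induces, by 0.47, at 13.3, 15.8 and 19.9 and 22.1, 25.1 and 20.3 CPM (FDR 0.0312). In the list of 16 IL-6 receptor and STAT3-induced genes 4 rose (Il6st, Junb, Cebpb and Il10) and 1 fell. Cebpb missed the FDR without Day 5 replicate 1, at 1.49 (FDR 0.0784). Il7r, the receptor that keeps resting T cells alive, rose from 8.7, 10.5 and 12.2 to 40.4, 35.3 and 36.7 CPM (1.85 ± 0.16, FDR 1.78e-07). Il10ra, Il15ra and Il27ra rose by 1.83, 1.06 and 1.00, and Il18r1 by 1.82 from 1.33, 1.19 and 1.9 CPM. Il1r1 fell from 40.1, 43.7 and 49.3 to 12.4, 26.1 and 21.2 CPM (-1.16 ± 0.34, FDR 0.00852) and Il23r by 2.12. Tgfbr2 was higher by 0.86, while Ifngr1 (-0.08, FDR 0.451) and Il12rb2 (0.42, FDR 0.369) did not pass. Of 22 tested members of that list of 25, 6 rose and 2 fell.

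Interferon genes differed by class. Of 28 genes induced by interferon gamma or encoding MHC class I, 9 rose and none fell, with a median of 0.77. H2-K1, a classical MHC class I heavy chain, rose from 1102, 1163 and 1120 CPM on Day 3 to 3470.3, 3158 and 3175 CPM on Day 5 (1.53 ± 0.08, FDR 1.36e-08), its light chain B2m from 1537, 1684 and 1776 to 4709, 4203 and 3576 CPM, the nonclassical H2-Q4 by 1.27, and their transactivator Nlrc5 by 1.07. MHC class I heavy chains are near copies of each other, so that reads may be split between them or left out as not unique. Irf1 and Gbp2 were higher by 0.91 and 0.89 and Psmb9 by 0.44, while Tap1 (0.07, FDR 0.359) and Irgm1 (0.02, FDR 0.904) did not pass. Gbp8, Gbp9 and Gbp7, interferon-induced GTPases, rose by 2.08, 1.44 and 1.5. Of 49 tested type I interferon genes of 50, 3 rose and 2 fell, under the shares of all genes, with a median of 0.26. Isg15, at 30.5, 33.2 and 37.2 and 41.4, 41.1 and 44.3 CPM, Irf7, Ifit1, Ifit3 and Mx1 did not pass (FDR 0.0708, 0.145, 0.277, 0.458 and 0.284). Slfn5, Ifi27l2a and Ifit1bl1 rose, by 1.09, 1.12 and 1.30, and Oas2 and Ifi204 fell. MHC class II genes, which mouse T cells largely lack, were called higher in 5 of 8 tested members, led by H2-DMa from 52.3, 79.5 and 65 to 284, 281 and 270.4 CPM. H2-Ob (2.02), H2-Oa (1.18) and Cd74, from 15.1, 17.2 and 13.9 to 25.2, 32.6 and 43.8 CPM, were also among them. H2-Aa (2.19, 2.96 and 0.846 CPM on Day 5) and H2-Ab1 (1.88, 3.58 and 2.16 CPM) did not pass and were low. Without Day 5 replicate 3 H2-Aa was called higher, at 1.47 (FDR 0.0312). The part of antigen-presenting cells in this list was not tested.

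Survival genes were led by Bcl2l11. This gene encodes BIM, the BH3-only protein that kills T cells as responses contract, and it had the smallest p of all genes that rose. It went from 10.5, 9.54 and 8.47 CPM on Day 3 to 93.6, 76.3 and 75.1 CPM on Day 5, a change of 3.10 ± 0.16 (FDR 1.26e-08). Its antagonists moved less. Mcl1 was higher by 0.84 (FDR 6.01e-06), Bcl2 was at 44.8, 40.4 and 42.3 and 49.5, 57 and 45 CPM (0.25, FDR 0.114), and Bcl2l1, which encodes BCL-XL, was lower at 80.2, 77 and 65.9 and 45.6, 51.4 and 66.5 CPM (-0.45, FDR 0.00991). Bcl2a1b, Bnip3l and Bnip3 rose by 1.04, 1.03 and 1.08, and in all 4 of 17 tested members of the list of 19 rose and none fell. Bcl2a1b has near-identical copies, so that its reads may be shared with them or left out as not unique.

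Genes of resting and memory T cells rose in part. In this list of 25, 8 rose and none fell, with a median of 0.47, and 19 passed the FDR upward. Btg1, which restrains proliferation, rose from 173, 191 and 135 CPM on Day 3 to 1028, 802 and 585 CPM on Day 5 (2.28 ± 0.23, FDR 8.71e-07), and Pdcd4, an inhibitor of translation initiation, from 96.8, 113 and 103 to 321, 303 and 293 CPM (1.55 ± 0.10, FDR 3.18e-08). Txnip, which limits glucose uptake, rose by 1.12. Bach2, a repressor of effector genes, rose from 26, 34.2 and 24.5 to 77.4, 62.1 and 51 CPM. The best known factors of the naive state moved by less than 2-fold, with Tcf7 higher by 0.25, Foxo1 by 0.40, Id3 by 0.35 and Lef1 by 0.17 (FDR 0.00577, 0.000968, 0.0231 and 0.0854). Klf2, which drives exit from lymph nodes, was at 90.3, 44.1 and 50.8 and 47.5, 53.4 and 25.3 CPM, overlapping between days (-0.56, FDR 0.0903).

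**Figure D3:**
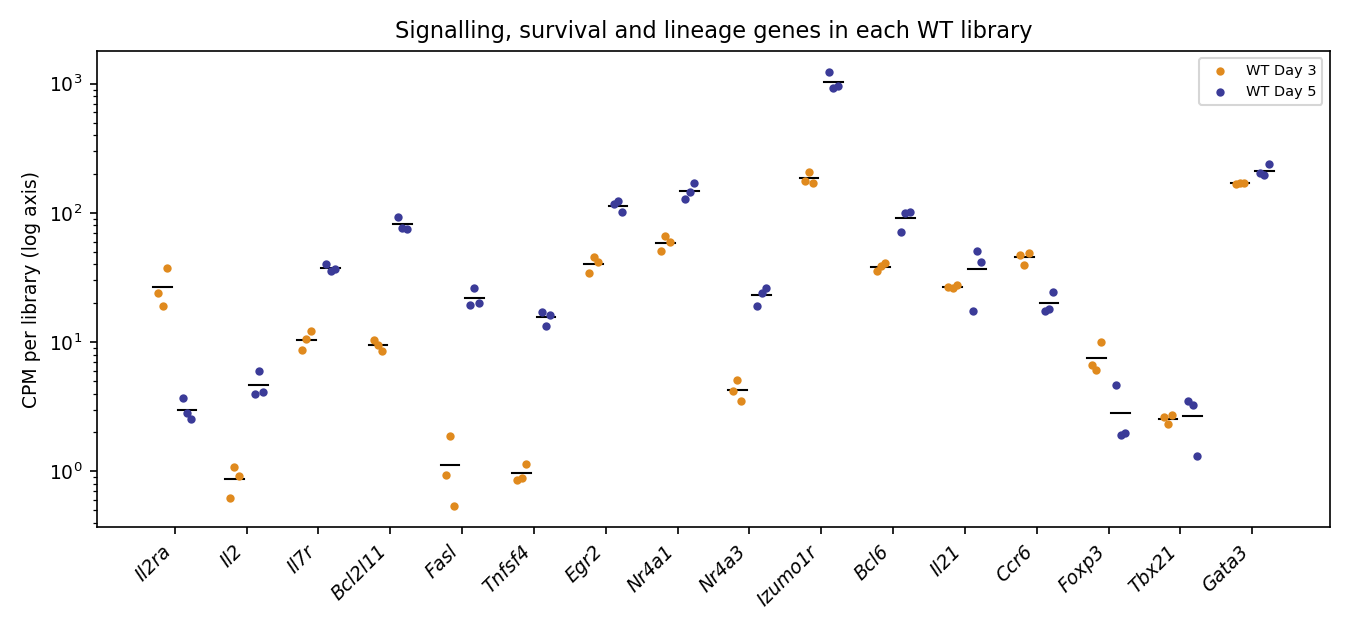
CPM (log axis) of 16 genes of cytokine signalling, survival and lineage in each of the 3 WT Day 3 libraries (orange) and 3 WT Day 5 libraries (blue), 1 point per library with a bar at the group mean. Il2ra, Ccr6 and Foxp3 are lower on Day 5 in all 3 libraries, Bcl2l11, Fasl, Tnfsf4, Izumo1r and 7 others are higher in all 3, and the days overlap for Il21 and Tbx21.

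Among lineage factors Id2 and Bcl6 rose and Prdm1 fell. Of 29 tested transcription factors of 30, 5 rose and 2 fell, near the 12.7% and 9.39% of all genes. Id2, which supports effector cells, rose from 54, 52.5 and 50.6 CPM on Day 3 to 251, 198 and 203 CPM on Day 5 (2.05 ± 0.15, FDR 4.42e-08). Bcl6, the master factor of T follicular helper (Tfh) cells, rose from 35.8, 38.9 and 40.8 to 71.3, 99.1 and 101 CPM (1.24 ± 0.16, FDR 9.14e-06), and its antagonist Prdm1 fell from 2.69, 2.08 and 2.01 to 0.611, 1.09 and 0.47 CPM (-1.65 ± 0.45, FDR 0.00598). Hopx rose by 2.09, and Eomes from 0.234, 0.346 and 0.109 to 3.36, 2.08 and 1.55 CPM. Bhlhe40 rose by 1.04 with 1 high library, at 92.1, 79.3 and 214 CPM on Day 5 against 65.3, 77.2 and 44.8 CPM, and without that library, replicate 3, or without Day 3 replicate 3 it was at 0.45 and 0.85 (FDR 0.119 and 0.0555). Maf and Tox were higher by 0.85 and 0.82, and Gata3, the Th2 factor, by 0.32 at 168, 171 and 169 and 202, 196 and 238 CPM (FDR 0.00672). Tbx21, the Th1 factor, was low at 2.65, 2.32 and 2.71 and 3.51, 3.27 and 1.32 CPM (0.07, FDR 0.859), with a sign that depended on the fit. Batf, Tox2 and Zeb2 did not pass (FDR 0.126, 0.323 and 0.595).

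Among Tfh genes 6 of 25 tested of 27 rose and none fell, with a median of 0.44. Izumo1r, the folate receptor 4 of Tfh and regulatory cells, rose from 175, 208 and 172 CPM on Day 3 to 1223, 921 and 960.4 CPM on Day 5 (2.48 ± 0.17, FDR 3.26e-08), Tnfsf8, the CD30 ligand, from 57.4, 62.1 and 59.4 to 198, 246 and 270.1 CPM, and Rgs16 by 2.77. The defining surface genes did not pass the 2-fold limit. Cxcr5, which leads cells to the follicle, was at 149, 161 and 177 and 165, 220.5 and 219 CPM (FDR 0.107), Pdcd1 at 264, 228 and 249 and 147, 219.7 and 215 CPM (FDR 0.0632), and Icos at 589, 635 and 629 and 661, 684 and 824 CPM (FDR 0.0449). Il21, the helper cytokine, was at 26.5, 26.2 and 27.8 CPM on Day 3 and 17.5, 50.5 and 41.4 CPM on Day 5, with replicate 1 low and the other 2 above Day 3 (0.44, FDR 0.337). Without that library Il21 was 0.77 higher (FDR 0.0795). Tigit split in the same way, at 17.4, 67.5 and 65.2 CPM on Day 5 after 45.6, 54.7 and 60.2 CPM, and its difference of -0.10 became 0.31 without that library (FDR 0.495).

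Part of the Th17 genes fell. Of 13 tested members of 15, 6 fell and none rose, with a median of -1.14. Ccr6, the chemokine receptor of Th17 cells, went from 47.4, 39.3 and 49.3 CPM on Day 3 to 17.4, 18.1 and 24.5 CPM on Day 5 (-1.18 ± 0.16, FDR 2.04e-05). Il17f and Il23r, both low, fell from 0.975, 1.38 and 1.47 to 0.407, 0.0519 and 0.235 CPM and from 3.55, 2.87 and 1.36 to 0.204, 0.623 and 0.94 CPM, while Il22 and Rora did not pass (FDR 0.133 and 0.0822) and Il17a was too low to test. Without Day 5 replicate 1 Il22 was called lower, at -2.27 (FDR 0.017). Th1 genes showed 5 increases (Fasl, Tnf, Ifng, Il18r1 and Ccl4) and 1 decrease (Havcr2) in 21 tested of 22. Ifng rose from 0.156, 0.544 and 0 to 3, 1.4 and 2.35 CPM, and Cxcr3 (-0.29, FDR 0.381) and Ccl5 (1.36, FDR 0.116) did not pass. Without Day 3 replicate 3 Ccl5 was called higher, at 2.23 (FDR 0.0337). Of 20 Th2 genes 10 were tested, and Il5, Il13 and Il1rl1 were among the others. Il4 was at 6.87, 6.38 and 7.49 and 4.84, 8.94 and 4.7 CPM, overlapping between days (-0.17, FDR 0.77), and the 1 call in the list was Il10, from 0.195, 0.0989 and 0.0543 to 0.356, 0.623 and 0.611 CPM. Of 14 tested regulatory T cell genes of 16, 4 rose (Nrp1, Ikzf4, Il10 and Gpr83) and 2 fell (Il2ra and Foxp3). Foxp3, which defines regulatory T cells, was at 6.63, 6.08 and 10.1 and 4.63, 1.92 and 1.97 CPM (-1.42 ± 0.36, FDR 0.0033), Ikzf2 was higher by 0.60 and Ctla4 by 0.43. Without Day 3 or Day 5 replicate 3 Ccl4 missed the FDR, at 1.22 and 1.28 (FDR 0.057 and 0.0517), and Gpr83 missed it without Day 3 replicate 1 or 2 or Day 5 replicate 1 (1.32, 1.47 and 0.83, FDR 0.0731, 0.0528 and 0.176). Cytotoxic genes of granules were low, with Gzmb at 0.819, 1.43 and 4.18 and 1.99, 1.14 and 0.47 CPM, and Gzmb, Gzmk and Prf1 did not pass (FDR 0.398, 0.13 and 0.839), while Srgn, the proteoglycan that packs granules, rose by 1.25 and Ctsw by 1.16. With Fasl these were the 3 calls in 13 tested members of 14, and Gzma was too low to test.

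Of 30 tested costimulatory receptors and TNF family ligands of 31, 12 rose and 1 fell (Tnfrsf8), against 12.7% and 9.39% of all genes, with a median of 0.78. Tnfsf4, the OX40 ligand, rose from 0.858, 0.89 and 1.14 CPM on Day 3 to 17.2, 13.3 and 16.2 CPM on Day 5 (4.02 ± 0.31, FDR 8.51e-08), and Tnfsf11, the RANK ligand, by 1.06. Igflr1, a receptor of the TNF receptor family outside the list, rose from 21, 28.9 and 22.9 to 233, 196 and 191 CPM (3.09 ± 0.18, FDR 1.36e-08). The adhesion molecule Cd2 rose by 1.04 and Cd86 by 1.81. Cd40lg, which licenses B cells, was at 111, 124 and 130.3 and 107, 131 and 148 CPM (0.08, FDR 0.545). Cd28, Tnfrsf4 and Tnfrsf18 were higher by 0.30, 0.25 and 0.76, under 2-fold. Of 20 tested secreted cytokines of 31, 7 rose and 3 fell (Tgfb3, Lif and Il17f). Ltb and Tnf rose from 245, 284 and 263 to 675, 643 and 661 CPM and from 14.8, 15.9 and 20.2 to 34.5, 50.6 and 33.5 CPM, and Lif fell from 36.1, 36 and 36.6 to 9.52, 23.2 and 17 CPM. Il3 and Csf2 were too low to test. Of 15 tested inhibitory receptors of 16, 4 rose and 2 fell. Lag3 rose from 8.08, 16.4 and 10.3 to 37.4, 42 and 50 CPM, Cd160 by 1.72, Vsir by 1.04 and Cd101 by 1.24, while Havcr2 fell from 2.42, 1.98 and 3.85 to 0.407, 0.312 and 0.235 CPM and Lair1 by 2.41. Btla was higher by 0.27 (FDR 0.0175).

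Of 35 tested homing receptors of 38, 4 rose and 2 fell, under the shares of all genes, with a median of 0.16. Itgb1, the beta 1 integrin chain, rose from 152, 106 and 115 CPM on Day 3 to 326, 336 and 407 CPM on Day 5 (1.52 ± 0.12, FDR 1.1e-07). Gcnt1, which extends selectin ligands, and Cx3cr1 rose by 2.01 and 1.30, and Cx3cr1 missed the FDR without Day 3 replicate 2 or 3 or Day 5 replicate 3 (1.23, 1.17 and 0.62, FDR 0.0535, 0.0611 and 0.203). Fut7, which completes selectin ligands, fell from 11.4, 5.74 and 12.6 to 2.24, 3.84 and 3.57 CPM. Ccr7, which brings cells into lymph nodes, and S1pr1, which lets them leave, were at 768, 542 and 579 and 303, 294 and 283 CPM on Day 5 after 417, 489 and 459 and 211, 260.3 and 258 CPM on Day 3, higher by 0.47 and 0.27 and under 2-fold. Ccr4 was lower by 0.72 (FDR 0.00187). Gpr183, Cxcr6 and Itga4 did not pass (FDR 0.2, 0.643 and 0.427).

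Outside the lists, the largest increase of all called genes above 10 CPM was in Wnt10a, a secreted WNT ligand. It went from 0.234, 0.198 and 0.38 CPM on Day 3 to 14.7, 9.82 and 18.4 CPM on Day 5 (5.72 ± 0.33, FDR 1.36e-08), with no overlap. Gm3739, a predicted gene, rose from 0.429, 0.643 and 0 to 20.5, 13.6 and 17.2 CPM. Ephx1, an epoxide hydrolase, rose from 41.2, 59.5 and 42.3 to 342, 310.1 and 309 CPM (2.75 ± 0.16, FDR 1.36e-08), and N4bp2l1 by 1.89. At the other end the uncharacterized transcript 1500009L16Rik fell from 11.9, 13 and 19 to 1.12, 0.831 and 0.517 CPM. Reads were counted without regard to strand, and 100 of the 289 tested genes named here share exon sequence with another gene. Examples are Wnt10a with Gm32099, Matk with Mrpl54 and Foxp3 with Flicr. Reads there may have been left out as ambiguous or may come from the partner.

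The question of whether these changes depend on host IL-6 was addressed by the interaction, the WT day change minus the Il6-/- day change, and both changes come from separate libraries. Over all tested genes 25.9% were called in Il6-/- recipients, 14.5% higher and 11.4% lower on Day 5. Of the 2996 genes called in WT, 2934 (97.9%) had the same sign in Il6-/- recipients. The share of all tested genes with the same sign was not counted. Of the same 2996 genes, 2145 were called in Il6-/- recipients too in the same direction, and 101 had an interaction FDR under 0.05. Over all genes 668 (4.92%) passed the interaction, 424 (3.12%) with a more positive and 244 (1.8%) with a more negative change in WT. Without scaling these became 228 and 420, and with upper-quartile scaling 344 and 307. The total fell to 235, 257, 313 and 288 without WT Day 3 replicate 2 or 3 or WT Day 5 replicate 1 or 2, to 258 without Il6-/- Day 3 replicate 1 or 2, and the more positive class was 273, 229 and 277 without Il6-/- Day 3 replicate 3 or Day 5 replicate 2 or 3 and 672 without WT Day 5 replicate 3. In both cell cycle lists 1 gene each passed, E2f2 and Kif14, and the list medians were -2.06 and -2.19 in Il6-/- recipients. Of the lists, ribosomal proteins held the largest share, with 31 of 46 more positive in WT, where the median in Il6-/- recipients was -0.13 against 0.34 in WT. The 31 became 11 with upper-quartile scaling and 10 without scaling. In the ribosome synthesis list 15 of 60 were more positive in WT, that is, lower by less, with a median of -1.18 in Il6-/- recipients. How this count of 15 moved with other scalings is not given here. C1qbp, Eno3 and Srsf6 were among the smallest interaction p-values in this direction, at 1.11, 1.11 and 0.71. Srm, the spermidine synthase, and Slc7a5 fell less in WT than in Il6-/- recipients, by 1.99 and 1.47. The same comparison for Bcl2l11 was a larger rise in WT, by 1.29 ± 0.21 (FDR 0.00504), and for Wnt10a by 4.32 (FDR 0.000207). An interaction can come from unequal levels on either day. Bcl2l11 had means of 9.49 and 81.7 CPM on Day 3 and Day 5 in WT and 21.6 and 75.8 CPM in Il6-/- recipients. Wnt10a had 0.271 and 14.3 CPM and 4.30 and 11.3 CPM. For both genes the hosts lay further apart on Day 3. Klrb1c, the NK1.1 receptor, rose in WT from 5.58, 5.14 and 3.75 to 30.4, 32.3 and 36.5 CPM, with an interaction of 2.70 (FDR 0.000166). Its means on Day 3 and Day 5 were 4.82 and 33.1 CPM in WT and 20.9 and 21.9 CPM in Il6-/- recipients. In the other direction, 8 of 25 Tfh genes, 8 of 35 homing genes and 11 of 49 type I interferon genes had a more negative change in WT, against 1.8% of all genes, and none of these lists had a member that was more positive. Over all genes this class fell from 244 to 99 and 101 without WT Day 3 replicate 2 or 3. It fell to 105 and 100 without Il6-/- Day 3 replicate 1 or 2. How the counts of these lists moved is not given here. Cxcr5, Icos, Bcl6 and Il21 differed by -1.55, -0.91, -1.12 and -2.74, S1pr1 by -0.93, and Irf7 and Socs3 by -1.30 and -1.48. Icos had means of 618 and 723 CPM on Day 3 and Day 5 in WT and 301 and 665 CPM in Il6-/- recipients, further apart on Day 3. For the other genes just named, levels in Il6-/- recipients are not given here, so that the day behind each difference is not shown. Slfn5, Ahnak and Slc9a9 had small interaction p-values too, at -1.58, -1.35 and -1.34. Smtn, a smooth muscle cytoskeletal protein, fell in WT from 255, 194 and 211 to 47.9, 46.9 and 64.4 CPM, with an interaction of -2.79 (FDR 0.00128). Its means in Il6-/- recipients were 127 and 212 CPM, apart from WT on both days.

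**Figure D4:**
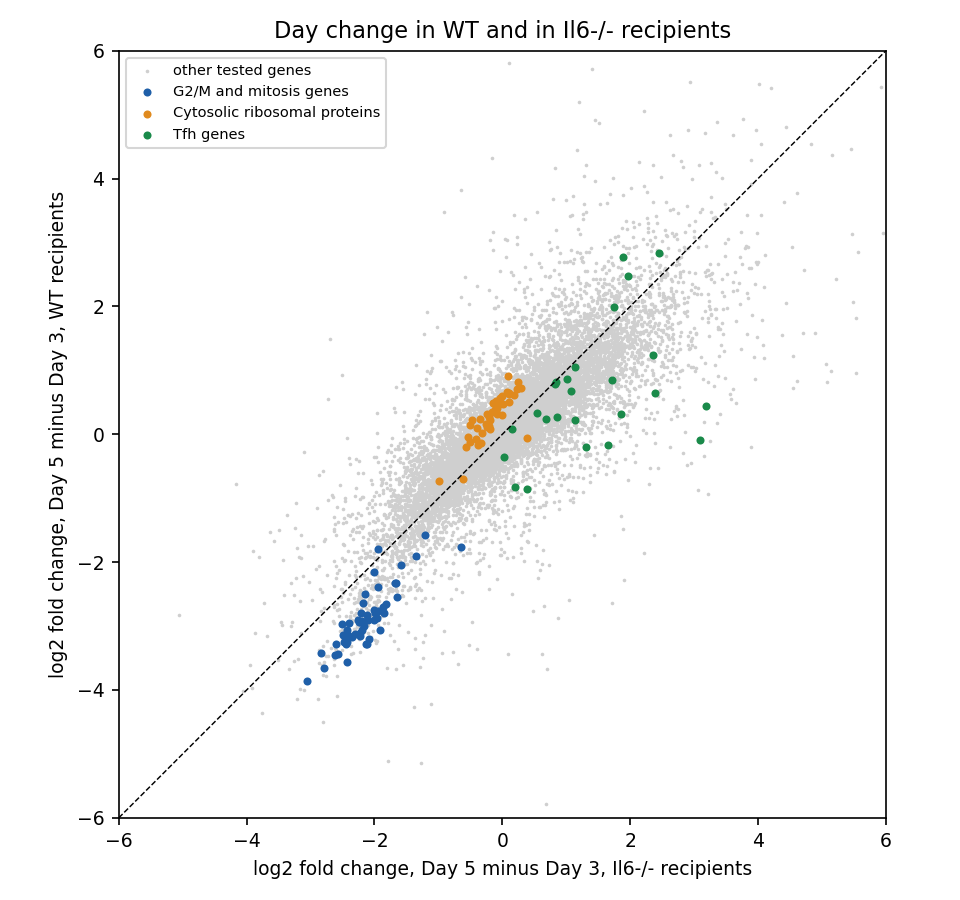
Log2 fold change from Day 3 to Day 5 in Il6-/- recipients (x axis) and in WT recipients (y axis), 1 point per tested gene, with equal changes on the dashed line and 28 genes outside the axes. G2/M genes lie low on both axes, most ribosomal proteins lie above the line with 31 of 46 passing the interaction, and 8 of 25 Tfh genes pass it below the line.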

How the data were processed

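RNA of sorted OTII cells was measured as poly(A) RNA-seq, 3 libraries for each host genotype and day. Per the methods and processing notes, the authors used Trim Galore 0.4.4 for trimming, STAR 2.5.2a for alignment (GRCm39) and HTSeq 0.6.1p1 for counting, with no use of strand. The deposited counts are whole reads per gene, and genes are named by symbol. A table of log2 CPM that the authors deposited for the series was not used. The summary lines of each count file (reads outside genes, not unique or ambiguous) were left out of library sizes and tests.

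Counts were filtered with edgeR's filterByExpr (13570 of 40840 genes kept), TMM-scaled, and fitted over all 4 groups, which share 1 estimate of the spread, with edgeR 4.0.16 quasi-likelihood tests (R 4.3.3) for the WT day change, the Il6-/- day change and their difference. Genes were called at FDR under 0.05 and at least 2-fold, and the interaction at FDR under 0.05. The median biological coefficient of variation was 0.132. Genes named are the anchors of each list and its 4 called members with the smallest p per direction, the 10 smallest p-values and 5 largest folds (at least 10 CPM) per direction, and the 5 smallest interaction p-values per direction, with others added to account for list members. Some genes that this rule names are not reported here. The comparison, its members and the gene lists were chosen with earlier results of these data known. Promoters were from RefSeq on GRCm38.p6, while counts are on GRCm39, and no coordinate was carried between builds. The scripts were tested on simulated counts. Alternatives were other scalings and filters, DESeq2 1.42.0, limma-voom 3.58.1, GC and length offsets, a replicate block, the 6 WT libraries alone, other fold limits and leaving out each library.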

Additional observations from a re-analysis of the deposited data

Results flagged for a closer look

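Of the genes named, 45 had a day change that differed between WT and Il6-/- recipients by the interaction test (edgeR quasi-likelihood, FDR under 0.05 over all genes tested), and each value is the WT log2 day change minus the Il6-/- one. The change was more positive in WT by 4.32 for Wnt10a, 2.70 for Klrb1c, 2.57 for Gm3739, 1.99 for Srm, 1.64 for Ctsw, 1.47 for Slc7a5 and 1.36 for Cd86. Smaller differences in the same direction were 1.29 for Bcl2l11, 1.11 for Eno3, 1.11 for C1qbp, 1.04 for Cd74, 0.98 for Id2, 0.81 for Rps28 and 0.71 for Srsf6. Below these came 0.60 for Npm1, 0.58 for Rps14, 0.56 for Nop58, 0.55 for Tnfsf11, 0.52 for Nop56, 0.37 for Rpl14 and 0.34 for Rplp0. Wnt10a changed by 5.72 in WT and 1.40 in Il6-/- recipients, and Klrb1c by 2.77 and 0.06.

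In the other direction the change was more negative in WT by -3.19 for Tigit, -2.79 for Smtn, -2.74 for Il21, -2.65 for Tgfb3, -1.70 for Fut7, -1.58 for Slfn5 and -1.55 for Cxcr5. Next were -1.52 for Tox2, -1.48 for Socs3, -1.35 for Ahnak, -1.34 for Slc9a9, -1.30 for Irf7 and -1.30 for Ticrr. These were followed by -1.15 for Kif14, -1.12 for Bcl6, -0.95 for Txnip, -0.93 for S1pr1, -0.91 for Icos, -0.88 for E2f2 and -0.86 for Ccr4. Smaller ones were -0.63 for Vsir, -0.58 for Btla, -0.46 for Pecam1 and -0.35 for Tap1. Il21 changed by 0.44 in WT and 3.19 in Il6-/- recipients, Tigit by -0.10 and 3.10, and Smtn by -2.05 and 0.74. Tigit had means of 53.5 and 50 CPM on Day 3 and Day 5 in WT and 7.65 and 65.8 CPM in Il6-/- recipients. For Il21 and Tigit, the WT Day 5 library of replicate 1 lay apart from the other 2. Rps14, Ccr4 and Ctsw lay close to the limit, with interaction FDR 0.0499, 0.0499 and 0.0487. How the interaction of each of these genes fared under the alternatives below is not given here.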

How the results depend on the processing

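The WT counts of genes called higher and lower stayed within 1.5 times of 1722 and 1274 under every alternative but the fold limit, which gave 504 and 676 for a test against a 2-fold change and 4004 and 3684 with no limit. The Il6-/- counts moved in the same way, to 726 and 804 and to 4122 and 4089. For the interaction, more positive and more negative counts moved to 228 and 420 without scaling, 721 and 579 without the low-count filter and 653 and 483 with DESeq2, and leaving out 1 library gave 136 to 672 and 99 to 356. Of 289 genes named, 178 kept direction and call of the WT day change in all alternatives. A further 25 lost the call only against a 2-fold change, and 43 in others. Of these, 34 lost it when 1 library was left out, 10 of them by missing the FDR and the rest by the 2-fold limit alone (Ahr, Bcl2a1b, Bhlhe40, Bnip3, Bnip3l, Ccl4, Cd2, Cd74, Cebpb, Csf1r, Ctsw, Cx3cr1, Cycs, Fosb, Gapdh, Gpr83, Hsp90aa1, Ifi27l2a, Il15ra, Il1r1, Il27ra, Il6st, Klrc1, Krt8, Ldha, Lif, Mthfd2, Mxd4, Nlrc5, Pkm, Siglech, Slc9a9, Tnfsf11 and Vsir). Of 36 list medians 34 kept their sign, and that of the NK and CD8 T cell markers turned from 0.75 to -0.024 without the low-count filter and that of the Th1 genes from 0.16 to -0.013 with the length offset.

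None of the genes that changed sign was called with all libraries in the fit as reported, and Hspa1a was called after the change, without WT Day 3 replicate 1 (FDR 0.0153). With upper-quartile scaling these were Ahnak 0.0061, Hspa1a 0.028, Ifngr1 0.11, Il4 0.023, Rpl3 0.033, Rplp0 0.12, Slc2a1 0.17 and Tigit 0.10. With no scaling it was Slc2a1 0.026, and with RLE factors, DESeq2 and the 6 WT libraries alone it was Irgm1 -0.018, -0.018 and -0.012. Without the low-count filter these were Cd8b1 -0.024, Irgm1 -0.052 and Tbx21 -0.00067, with limma-voom Hspa1a 0.85, Prf1 0.029 and Tbx21 -0.070, with the GC offset Batf -0.010, H2-Ab1 -0.042, Il2rb -0.016, Tap1 -0.049 and Tbx21 -0.15, and with the length offset Batf -0.27, Cd40lg -0.25, Cd8b1 -0.23, Cxcr6 -0.15, H2-Ab1 -0.11, Isg15 -0.12, Tbx21 -0.14 and Tnfrsf4 -0.16. Leaving out 1 library gave Cd40lg -0.037 to 0.19, Cd8b1 -0.043 to 0.13, Cxcr3 -0.54 to 0.071, Cxcr6 -0.0037 to 0.29, Epcam -0.21 to 0.79, Gzmb -1.40 to 0.094, H2-Ab1 -0.24 to 0.27, Hspa1a -0.72 to 2.90, Hspa1b -0.24 to 2.90, Il12rb2 -0.0068 to 0.74, Irgm1 -0.11 to 0.084, Prf1 -0.92 to 0.17, Slc2a1 -0.078 to 0.0064, Tbx21 -0.17 to 0.40 and Tigit -0.37 to 0.31. The cause was not tested.

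No pairing of the WT libraries by replicate number was seen, but 3 libraries per day are too few to show whether the numbers mark a shared batch. Deviations of same-numbered WT libraries correlated at 0.071, -0.040 and -0.045 across genes, and not every library correlated best with its own number. With the replicate block 1683 genes were higher and 1284 lower in WT, and the interaction had 424 and 263. The block with the GC offset gave 1559 and 1363. With the block Hspa1a changed sign (0.25), and with block and GC offset Batf -0.010, Cd8b1 -0.00096, H2-Ab1 -0.036, Hspa1a 0.064, Il2rb -0.017, Tap1 -0.050 and Tbx21 -0.17.

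With 3 libraries per group, and 1 estimate of the spread for all 4 groups, genes with few counts were not tested, and a p that missed the threshold does not show that a gene was unchanged.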

Other observations

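Further gene families were counted after their values had been seen, so that these counts describe the data and support nothing. Histone genes fell with the S phase genes, in 40 of 58 tested of 75, with none higher and a median of -1.52. Poly(A) selection captures replication-dependent histone transcripts poorly. Of 13 tested tubulins of 15, which form microtubules, 7 fell and 1 rose (median -1.16), and of the 8 CCT chaperonin subunits, which fold tubulin and actin, 4 fell and none rose (median -0.93). Of 37 tested proteasome subunits of 39, 3 fell and 31 passed the FDR downward (median -0.51), and 1 of 78 mitochondrial ribosomal proteins fell and 52 passed the FDR downward (median -0.36). Among 42 tested splicing proteins of 43, 10 fell and none rose (median -0.58).

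Rising families were fewer. Of 8 Gimap GTPases, which keep resting lymphocytes alive, 3 rose and 7 passed the FDR upward (median 0.76), and of 12 tested cathepsins of 18, proteases of the lysosome, 4 rose and none fell (median 0.58). Joining segments of the T cell receptor alpha locus rose in 12 of 29 tested of 60 (median 1.14), and mitochondrial tRNAs in 11 of 19 tested of 22 (median 1.33). These last short features can take up reads of unspliced or longer transcripts, and the share of counts on mitochondrial genes also moved with day, from 0.908% to 1.08% on Day 3 to 2.04% to 2.37% on Day 5. Its part in these families was not tested.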
